A study of Mus musculus with 10 samples.

Results

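Naive pluripotency factors are the transcription factors and early-embryo genes that mark mouse embryonic stem cells (mESCs) held in the ground state. The set described here holds 10 genes, Klf2, Klf4, Klf5, Esrrb, Nr0b1, Tfcp2l1, Tbx3, Prdm14, Zfp42 and Dppa3, of 34591 genes measured. They were picked by gene symbol as known factors of this state, with earlier results of these data known. RNA-seq was performed on WT mESCs and on 4 knockout clones that lack a component of MiDAC, the mitotic deacetylase complex. MiDAC joins histone deacetylase 1 or 2 to DNTTIP1, a nucleosome-binding dimerization protein, and ELMSAN1, a scaffold protein. The question asked was which genes depend on each of these MiDAC subunits.

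All cells were male C57/BL6 mESCs of the Bruce-4 line, first cultured without feeders, moved after the editing to a defined medium and grown there with 3 µM of the GSK3β inhibitor CHIR99021, 1 µM of the MEK inhibitor PD0325901 and 1000 U/ml of leukemia inhibitory factor (LIF). WT cells carried no knockout. Clones D2A7 and D1E6 were knocked out for Dnttip1, and clones E2E8 and E2G7 for Elmsan1. Each clone was grown from a single sorted cell after CRISPR/Cas9 editing, so that a clone is 1 isolate and each knockout rests on 2 of them. Every line gave 2 libraries, 10 in all. The study calls the libraries of a line biological replicates, and how they were kept apart (by culture or passage) is not given in the sources used here, so p-values measure the spread between these libraries.

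The culture conditions act on the same network as the genes described. LIF activates STAT3, which raises Klf4, and GSK3β inhibition relieves repression of Esrrb and Tfcp2l1 by TCF7L1. MEK inhibition keeps the ERK pathway from pushing cells towards the primed state. The resulting factors bind each other's regulatory regions together with OCT4, SOX2 and NANOG, and the loss of a single member is often buffered by the others. HDAC complexes usually remove acetyl groups from histones at regulatory regions, and MiDAC is a member of that class.

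Promoter sequence was printed for 4 members whose levels define the patterns described further on. Klf2, Tfcp2l1 and Nr0b1 had the same order of the 5 line means, in which some lines overlapped. Zfp42 was higher than WT in every knockout library. Each sequence is the 250 bases before the annotated start, 5′ to 3′ on the strand of the gene, from RefSeq on GRCm38.p6, and 6 of 10 members had an entry. Klf2 lies at chr8:72318812-72319061 on the plus strand, Tfcp2l1 at chr1:118627695-118627944 on the plus strand, Nr0b1 at chrX:86191525-86191774 on the plus strand and Zfp42 at chr8:43307010-43307259 on the minus strand. Capitals mark a match on either strand to CACCC, a core bound by KLF factors, or to CTTTGA or CTTTGT, cores bound by TCF factors, and none of these matches overlapped.
Klf2: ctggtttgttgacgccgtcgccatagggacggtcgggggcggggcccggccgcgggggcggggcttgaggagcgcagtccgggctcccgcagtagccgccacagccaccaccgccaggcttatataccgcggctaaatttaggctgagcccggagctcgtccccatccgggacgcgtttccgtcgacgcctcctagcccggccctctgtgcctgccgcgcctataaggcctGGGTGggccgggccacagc
Tfcp2l1: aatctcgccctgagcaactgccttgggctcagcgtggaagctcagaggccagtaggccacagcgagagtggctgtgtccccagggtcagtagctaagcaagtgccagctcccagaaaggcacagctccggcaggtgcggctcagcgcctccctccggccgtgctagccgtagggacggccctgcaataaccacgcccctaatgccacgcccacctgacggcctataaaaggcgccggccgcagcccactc
Nr0b1: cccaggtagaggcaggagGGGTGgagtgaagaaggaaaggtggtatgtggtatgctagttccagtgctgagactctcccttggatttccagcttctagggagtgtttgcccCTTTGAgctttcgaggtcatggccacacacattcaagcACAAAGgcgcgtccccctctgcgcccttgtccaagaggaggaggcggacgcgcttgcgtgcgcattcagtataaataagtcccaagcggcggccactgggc
Zfp42: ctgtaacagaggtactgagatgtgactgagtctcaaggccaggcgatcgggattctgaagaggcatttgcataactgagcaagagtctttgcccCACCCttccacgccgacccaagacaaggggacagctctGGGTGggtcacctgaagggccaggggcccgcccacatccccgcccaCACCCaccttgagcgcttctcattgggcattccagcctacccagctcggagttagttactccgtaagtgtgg

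The Zfp42 sequence held 3 CACCC matches, those of Klf2 and Nr0b1 1 each, and that of Tfcp2l1 0. CACCC was present in 51.3% of 27025 RefSeq promoters of this length. The Nr0b1 sequence also held 1 CTTTGA and 1 CTTTGT, present in 14.1% and 16.5% of promoters. None of the 4 held TTCNNNGAA, the STAT core, AAGGTCA, the ESRRB core, or AGGTGT, the T-box core, which were present in 7.18%, 4.05% and 11.99% of promoters. The 4 sequences were rich in G and C, at 71.2% for Klf2, 65.2% for Tfcp2l1, 58.4% for Zfp42 and 57.2% for Nr0b1, with a median of 52% over all promoters. Klf4 and Esrrb had entries that are not shown, and Klf5, Tbx3, Prdm14 and Dppa3 are named only. The Esrrb entry at chr12:86360867-86361116 held 1 TTCNNNGAA match, and the other Esrrb entry and that of Klf4 held 0.

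All 10 members were expressed at high levels in every library. Levels are given as normalised FPKM (fragments per kilobase of transcript and per unit of library depth, divided by a scaling factor per library), which is per length and can be set beside other genes. In WT, Tfcp2l1 was the most abundant member at 147 ± 1.52 (SD, n = 2 here and for every WT mean), followed by Esrrb at 103 ± 2.94, Dppa3 at 96.2 ± 4.53, Klf2 at 86.3 ± 6.51 and Klf4 at 85.6 ± 1.32. Zfp42 stood at 68.4 ± 1.32, Klf5 at 44.4 ± 1.73, Nr0b1 at 32.5 ± 0.218, Prdm14 at 26.7 ± 0.339 and Tbx3 at 23.6 ± 0.792. Klf2 and Klf4 overlapped between the WT libraries, and the other neighbours in this order did not. The members lay between percentile 91.2 and percentile 98.6 of all genes in WT. Library totals were 30182379 to 84291842 recovered fragments, with the 2 WT libraries the shallowest. The WT libraries were also the least alike, with a chi-square per gene between libraries of a line of 53.4, and 5.08 to 5.95 in the clones. The median over genes was closer, at 1.31 in WT and 0.923 to 1.24 in the clones. Behind each member's value stood 1754 to 116741 fragments. Counting error was therefore at most 2.39% of a member's value.

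**Figure D1:**
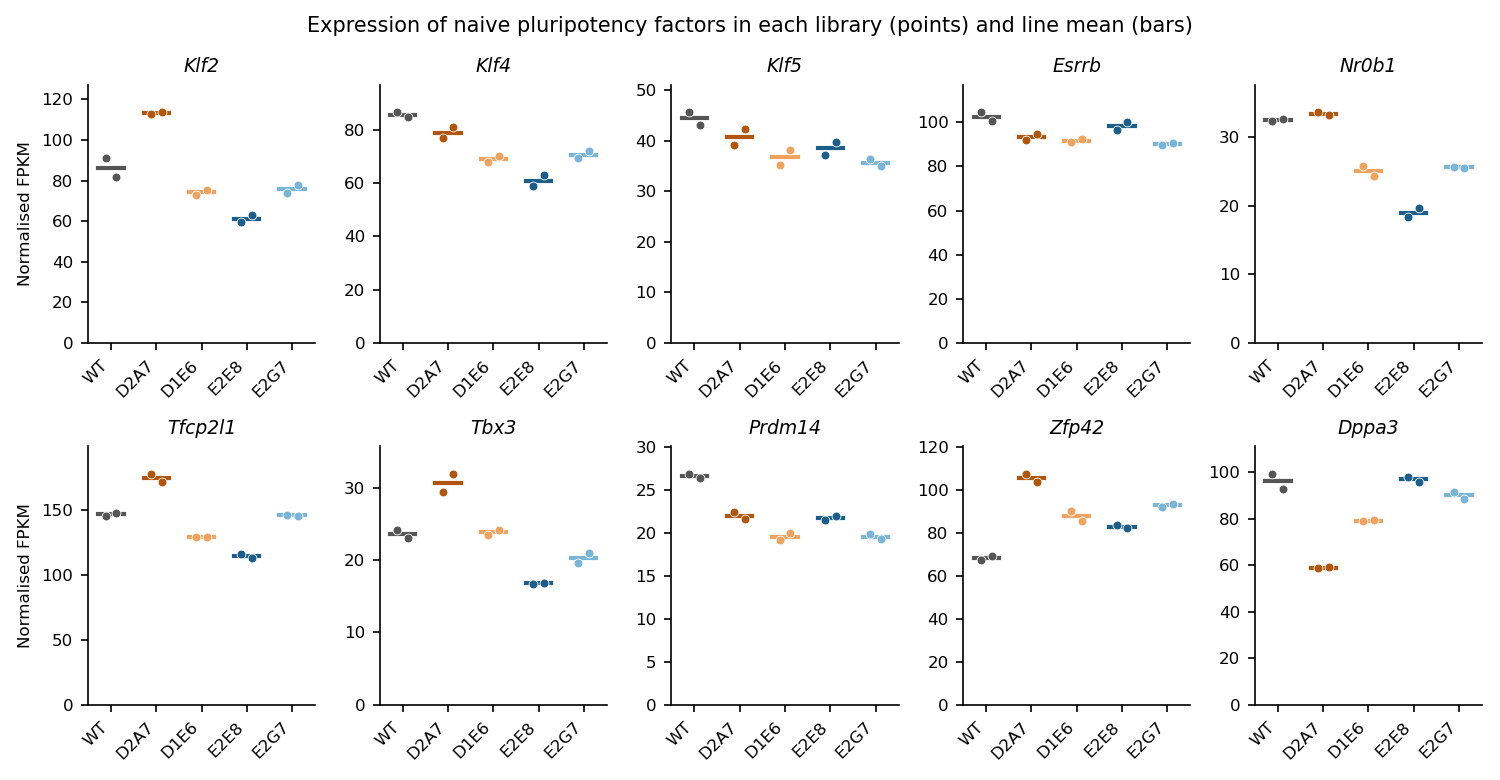
Normalised FPKM of each naive pluripotency factor (vertical axis, from 0) in the 10 libraries, grouped by line on the horizontal axis; points are libraries and bars are line means. Zfp42 sits at 67.4 and 69.3 in WT and between 82.5 and 108 in the knockout libraries, whereas Klf2, Tfcp2l1, Tbx3 and Nr0b1 are highest in clone D2A7 and lowest in clone E2E8.

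The libraries carried the identity of mESCs. The summed level of 7 mESC markers was 2512 to 2552 in WT, 2602 to 3150 in Dnttip1 KO and 2420 to 2767 in Elmsan1 KO. The least abundant of them averaged 19.0. Most of the sum was Dppa5a, with means of 1598 in WT, 1989 in Dnttip1 KO and 1864 in Elmsan1 KO. Pou5f1, Sox2 and Nanog, also on this list, had lower means than WT in both knockouts. Sall4 had a higher mean in Dnttip1 KO and a lower one in Elmsan1 KO. Summed primitive endoderm markers (7 genes) were 1.08 to 1.19 in WT, 0.702 to 1.58 in Dnttip1 KO and 0.763 to 0.884 in Elmsan1 KO, and fibroblast or feeder markers (6 genes) reached at most 0.582 in any library. Two-cell-like markers (5 genes) were at 0 in WT and reached at most 0.260 elsewhere. Trophoblast markers (6 genes) summed to 38.0 to 40.6 in WT, 26.7 to 30.6 in Dnttip1 KO and 31.95 to 39.3 in Elmsan1 KO, most of it Tfap2c, which is also on the primordial germ cell list (5 genes, 54.1 to 55.9 in WT, 42.8 to 44.3 in Dnttip1 KO and 45.5 to 52.0 in Elmsan1 KO). The part of these markers in the results below was not tested. Dnttip1 itself stood at 8.35 to 8.45 in WT, 2.58 to 4.57 in Dnttip1 KO and 6.43 to 7.77 in Elmsan1 KO. Elmsan1, listed as C130039O16Rik, stood at 5.34 to 5.73 in WT, 4.62 to 5.13 in Elmsan1 KO and 7.78 to 8.67 in Dnttip1 KO. The mRNA of the targeted gene was thus lower in each knockout but still present. At the protein level, the study reported that DNTTIP1 or ELMSAN1 was lost completely in the clones, from indels that lead to a premature stop. It also reported severely reduced ELMSAN1 protein in Dnttip1 KO and lower DNTTIP1 protein in Elmsan1 KO. By qRT-PCR, it found Elmsan1 mRNA unchanged in Dnttip1 KO. In Elmsan1 KO, it found no significant change of Elmsan1 or Dnttip1 mRNA by qRT-PCR.

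Against WT, few of the 10 members passed a test in either knockout, and none by 1.5-fold. Zfp42 rose and Prdm14 fell in both, and Klf4 fell in Elmsan1 KO, at adjusted p under 0.05 (limma, Benjamini-Hochberg over all genes tested). No member reached the study's rule for a changed gene, a fold change of at least 1.5 with p under 0.01, in Dnttip1 KO, Elmsan1 KO or Dnttip1 KO against Elmsan1 KO, whereas 6.51%, 6.43% and 1.52% of all tested genes did. At an unadjusted p under 0.05 there were 6, 7 and 4 of 10 members in these comparisons, beside 27.3%, 27.8% and 15.8% of tested genes, and voom on recovered fragments also called 0 in each. In Dnttip1 KO, 1 member was higher (Zfp42) and 1 lower (Prdm14) at adjusted p under 0.05, beside 5.19% and 4.28% of tested genes. In Elmsan1 KO, 1 was higher (Zfp42) and 2 lower (Klf4 and Prdm14), beside 5.62% and 4.91%. Over the members, log2 fold changes had a median of -0.16 for Dnttip1 KO and -0.30 for Elmsan1 KO, beside 0.0237 and 0.00304 over all tested genes. Both comparisons share the 2 WT libraries, so their values are given side by side and not as separate evidence. The Zfp42 result ended when chromosome medians were set to those of WT, as described with its chromosome, at 0.13 in Dnttip1 KO (adjusted p = 0.471) and 0.01 in Elmsan1 KO (adjusted p = 0.961, limma). In bulk RNA, a lower level in every cell and fewer cells with that level cannot be told apart.

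The knockout tests treat the 4 libraries of 2 clones as 4 samples. When libraries of a clone were allowed to correlate, with an estimated correlation of 0.70 in the Dnttip1 fit and 0.77 in the Elmsan1 fit, none of these members kept an adjusted p under 0.05. In that fit Zfp42 had an adjusted p of 0.158 in Dnttip1 KO and 0.184 in Elmsan1 KO, Prdm14 of 0.204 and 0.185, and Klf4 of 0.264 in Elmsan1 KO (limma in each case). The unadjusted p of Zfp42 in that fit was 0.00582 in Dnttip1 KO and 0.00709 in Elmsan1 KO (limma). Unadjusted values of the other members in that fit are not given here, so Zfp42 is not set apart from them. Leaving out either WT library also left 0 members at adjusted p under 0.05 in both knockouts. In Dnttip1 KO this count was 0 without D2A7 replicate 2 or D1E6 replicate 1, and 1 without D2A7 replicate 1 (Prdm14) or D1E6 replicate 2 (Zfp42). In Elmsan1 KO it was 1 without E2G7 replicate 1 (Prdm14) and 2 or 3 without any other knockout library, Prdm14 among them.

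**Figure D2:**
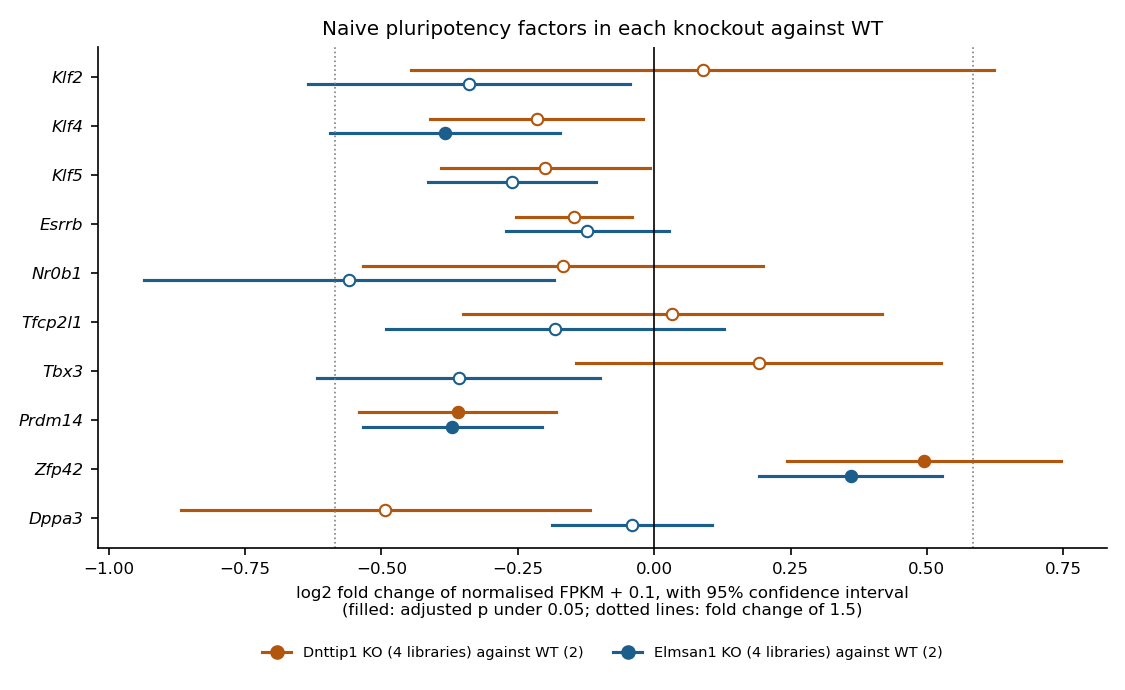
Log2 fold change of each member (horizontal axis) in Dnttip1 KO and in Elmsan1 KO against WT, 4 libraries against 2, with 95% confidence intervals; filled points have an adjusted p under 0.05 and dotted lines mark a fold change of 1.5. Zfp42 lies to the right of 0 in both knockouts at 0.50 and 0.36, Prdm14 to the left at -0.36 and -0.37, and the intervals of Klf2 and Tfcp2l1 in Dnttip1 KO span 0.

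Klf2, Klf4 and Klf5 encode zinc finger activators that share target sites and can replace each other in mESC self-renewal. Klf4 was 86.5 and 84.6 in WT, 76.7 and 80.8 in D2A7, 67.7 and 70.3 in D1E6, 59.0 and 62.9 in E2E8, and 69.2 and 72.0 in E2G7. All 8 knockout libraries lay below both WT libraries, with E2E8 lowest. The log2 fold change of Klf4 was -0.22 ± 0.0804 (SE) in Dnttip1 KO (adjusted p = 0.152) and -0.38 ± 0.0876 in Elmsan1 KO (adjusted p = 0.0428, limma), where the level fell by 23.4%.

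Klf5 was 45.6 and 43.1 in WT, 39.0 and 42.4 in D2A7, 35.2 and 38.1 in D1E6, 37.2 and 39.7 in E2E8, and 36.3 and 34.95 in E2G7. It was below both WT libraries in all 8 knockout libraries, by a narrow margin in D2A7. Its log2 fold change was -0.20 ± 0.0789 in Dnttip1 KO (adjusted p = 0.170) and -0.26 ± 0.0640 in Elmsan1 KO (adjusted p = 0.0524, limma).

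Klf2 separated the clones rather than the knockouts. It was 90.9 and 81.7 in WT, 113 and 114 in D2A7, 72.9 and 75.6 in D1E6, 59.5 and 63.0 in E2E8, and 73.9 and 77.8 in E2G7. D2A7 was above both WT libraries and the other 3 clones were below both. In the fit of all 5 lines, the log2 fold change against WT was 0.39 ± 0.0546 in D2A7 (adjusted p = 0.000715), -0.22 in D1E6 (adjusted p = 0.0159), -0.49 in E2E8 (adjusted p = 0.000205) and -0.18 in E2G7 (adjusted p = 0.0307, limma). The difference between both Dnttip1 KO clones was 0.61 (adjusted p = 8.5e-05), a 1.53-fold higher level in D2A7, and Klf2 was the only member that reached the 1.5-fold rule in that comparison, beside 13.1% of all tested genes. Without D1E6 replicate 1 the difference was 0.58, under the 1.5-fold limit. Pooling both clones gave 0.09 ± 0.220 for Dnttip1 KO (adjusted p = 0.828), with an interval from -0.45 to 0.62. The Elmsan1 KO value was -0.34 ± 0.122 (adjusted p = 0.135, limma).

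Esrrb encodes an orphan nuclear receptor downstream of GSK3β inhibition, and Nr0b1 (also called Dax1) an atypical receptor without a DNA-binding domain that binds OCT4 and ESRRB. Esrrb varied least of the set. It was 105 and 100.4 in WT, 92.1 and 94.9 in D2A7, 90.9 and 92.5 in D1E6, 96.6 and 100.03 in E2E8, and 89.6 and 90.6 in E2G7. All knockout libraries were below both WT libraries, but the highest, in E2E8, missed the lower WT library by less than 1 normalised FPKM. The highest line mean was 1.14 times the lowest, and the knockout values were -0.15 ± 0.0436 in Dnttip1 KO (adjusted p = 0.0926) and -0.12 ± 0.0619 in Elmsan1 KO (adjusted p = 0.253, limma).

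Nr0b1 was 32.3 and 32.6 in WT, 33.6 and 33.2 in D2A7, 25.8 and 24.3 in D1E6, 18.3 and 19.6 in E2E8, and 25.6 and 25.5 in E2G7. D2A7 was just above WT, D1E6 and E2G7 were alike, and E2E8 was lowest. In E2E8 Nr0b1 fell by 41.6% (-0.78 ± 0.0401 on the log2 scale, adjusted p = 5.57e-06, limma), and it was the only member past the 1.5-fold rule in this clone, beside 16.1% of tested genes. D1E6 and E2G7 fell by 0.37 (adjusted p = 0.000259) and by 0.34 (adjusted p = 0.000418) on the log2 scale, and D2A7 stood at 0.04 (adjusted p = 0.451, limma). Elmsan1 KO as a group gave -0.56 ± 0.156, the largest of the set in that comparison, but with an adjusted p of 0.0731 (limma). Without E2G7 replicate 1 it was -0.63 and without E2G7 replicate 2 also -0.63, and Nr0b1 then passed the 1.5-fold rule. Dnttip1 KO gave -0.17 ± 0.151 (adjusted p = 0.517).

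Tfcp2l1 encodes a grainyhead-like factor of the CP2 family, a target of both LIF and GSK3β inhibition, and Tbx3 a T-box factor linked to PI3K and MAPK signalling. Tfcp2l1 was 146 and 148 in WT, 178 and 171 in D2A7, 129 and 129 in D1E6, 116 and 113 in E2E8, and 146 and 146 in E2G7. D2A7 lay above WT, D1E6 and E2E8 below it, and E2G7 at its level, with a change of -0.388%. The log2 fold changes were 0.25 in D2A7 (adjusted p = 0.000251), -0.18 in D1E6 (adjusted p = 0.00157), -0.36 in E2E8 (adjusted p = 4.03e-05) and -0.01 in E2G7 (adjusted p = 0.900, limma). The Dnttip1 KO clones thus had opposite signs, and their group stood at 0.03 ± 0.158 (adjusted p = 0.915, limma). Elmsan1 KO stood at -0.18 ± 0.128 (adjusted p = 0.403, limma), the mean of a lower clone and a clone at the WT level. The sign in Dnttip1 KO turned when either D2A7 library was left out (-0.05 and -0.03).

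Tbx3 was 24.2 and 23.1 in WT, 29.4 and 31.9 in D2A7, 23.4 and 24.2 in D1E6, 16.7 and 16.8 in E2E8, and 19.6 and 20.9 in E2G7. D1E6 overlapped WT, D2A7 was above it and both Elmsan1 KO clones were below it. Tbx3 had the largest difference between the knockouts, 27.2 ± 4.11 (SD, n = 4 libraries) in Dnttip1 KO against 18.5 ± 2.11 in Elmsan1 KO, a log2 difference of 0.55 ± 0.119 (unadjusted p = 0.00138, adjusted p = 0.263, limma). All 4 Dnttip1 KO libraries were above all 4 Elmsan1 KO libraries. The difference missed a fold of 1.5, at 1.46, and passed it without D1E6 replicate 1 (0.62), without D1E6 replicate 2 (0.60) or without E2G7 replicate 2 (0.61). No member had an adjusted p under 0.05 in this comparison, in which 8 members were higher and 2 lower in Dnttip1 KO.

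Prdm14 encodes a PR domain zinc finger protein that represses Dnmt3b and FGF receptor genes in mESCs and is required for germ cell specification. Prdm14 was 26.9 and 26.4 in WT, 22.4 and 21.6 in D2A7, 19.2 and 20.0 in D1E6, 21.5 and 22.0 in E2E8, and 19.9 and 19.3 in E2G7. Every knockout library was below both WT libraries, by amounts that differed little between the knockouts. Prdm14 fell by 22.1% in Dnttip1 KO (log2 fold change -0.36 ± 0.0743, adjusted p = 0.0376) and fell by 22.6% in Elmsan1 KO (-0.37 ± 0.0680, adjusted p = 0.0231, limma). The difference between the knockouts was 0.01, with an interval from -0.15 to 0.17. Per clone, the log2 fold change against WT ran from -0.28 in D2A7 to -0.44 in D1E6 and E2G7, and all 4 clones had an adjusted p under 0.05.

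Zfp42 (REX1) encodes a zinc finger protein of the YY1 family and is a widely used reporter of the naive state, and Dppa3 (Stella) a maternal-effect protein that protects DNA from demethylation and restrains UHRF1. Zfp42 was 67.4 and 69.3 in WT, 108 and 104 in D2A7, 90.4 and 85.5 in D1E6, 83.5 and 82.5 in E2E8, and 92.1 and 93.7 in E2G7. Every knockout library was above both WT libraries, and D2A7 was highest. The rise was 40.9% in Dnttip1 KO (log2 fold change 0.50 ± 0.103, adjusted p = 0.0386) and 28.4% in Elmsan1 KO (0.36 ± 0.0697, adjusted p = 0.0263, limma). The median log2 fold change of all expressed genes on its chromosome, chromosome 8, was 0.37 in Dnttip1 KO and 0.36 in Elmsan1 KO, and with chromosome medians set to those of WT neither call was kept. D2A7 alone passed the 1.5-fold rule for Zfp42, at 0.63 (adjusted p = 8.04e-06, limma), and the other clones stood at 0.36, 0.28 and 0.44.

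Dppa3 was 99.4 and 93.0 in WT, 58.7 and 59.2 in D2A7, 78.9 and 79.3 in D1E6, 97.9 and 96.0 in E2E8, and 91.7 and 88.5 in E2G7. Both Dnttip1 KO clones were below WT, E2E8 lay between the WT libraries and E2G7 just under them. In D2A7 it fell by 38.6% (log2 fold change -0.70, adjusted p = 5.59e-06, limma) and passed the 1.5-fold rule, and D1E6 fell by 0.28 on the log2 scale (adjusted p = 0.000613, limma). As a group, Dnttip1 KO gave -0.49 ± 0.154 (adjusted p = 0.104) and Elmsan1 KO -0.04 ± 0.0606 (adjusted p = 0.702, limma). The difference between the knockouts was -0.45 ± 0.111, with an unadjusted p of 0.00304 and an adjusted p of 0.296 (limma). Dppa3 has processed pseudogenes in the mouse genome, and how reads matching several places were handled is not given in the sources used here, so its level carries that uncertainty.

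Whether the groups overlapped gives a description that does not rest on a model. In Dnttip1 KO, 1 member lay wholly above WT (Zfp42) and 5 wholly below (Klf4, Klf5, Esrrb, Prdm14 and Dppa3), beside 21.1% and 20.8% of tested genes. In Elmsan1 KO, 1 lay wholly above (Zfp42) and 7 wholly below (Klf2, Klf4, Klf5, Esrrb, Nr0b1, Tbx3 and Prdm14), beside 21.3% and 21.8%. Over all 8 knockout libraries, Zfp42 lay above and Klf4, Klf5, Esrrb and Prdm14 below both WT libraries, beside 12.2% and 12.1% of tested genes. An exact two-sided permutation test of 4 libraries against 2 cannot go below p = 0.0667, so no single member can pass 0.05 by that test.

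The clones of a knockout differed from each other in most members. In the fit of 5 lines, D2A7 had 2 members past the 1.5-fold rule (Zfp42 higher and Dppa3 lower), E2E8 had 1, and D1E6 and E2G7 had 0, beside 16.3%, 16.1%, 11.0% and 9.95% of tested genes. In D1E6 and E2G7, 9 of 10 members each had an unadjusted p under 0.05, beside 48.8% and 47.0% of tested genes, and voom also called 0 there. At adjusted p under 0.05 (limma), D2A7 had 4 members higher (Klf2, Tfcp2l1, Tbx3 and Zfp42) and 4 lower (Klf4, Esrrb, Prdm14 and Dppa3), beside 27.2% and 22.3% of tested genes. D1E6 had 1 higher and 8 lower, beside 19.9% and 20.8%, E2E8 1 higher and 7 lower, beside 27.6% and 24.4%, and E2G7 1 higher and 7 lower, beside 18.2% and 20.2%. The higher member was Zfp42 in each of these 3 clones. Between both Dnttip1 KO clones, 7 members were higher in D2A7 and 1 lower (Dppa3), beside 24.5% and 18.9%. Between both Elmsan1 KO clones, 3 were higher in E2E8 (Esrrb, Prdm14 and Dppa3) and 6 lower, beside 26.9% and 20.2%, with 0 past the 1.5-fold rule (0 by voom also, and 9 at an unadjusted p under 0.05, beside 53.5% of tested genes), beside 12.5%. 

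**Figure D3:**
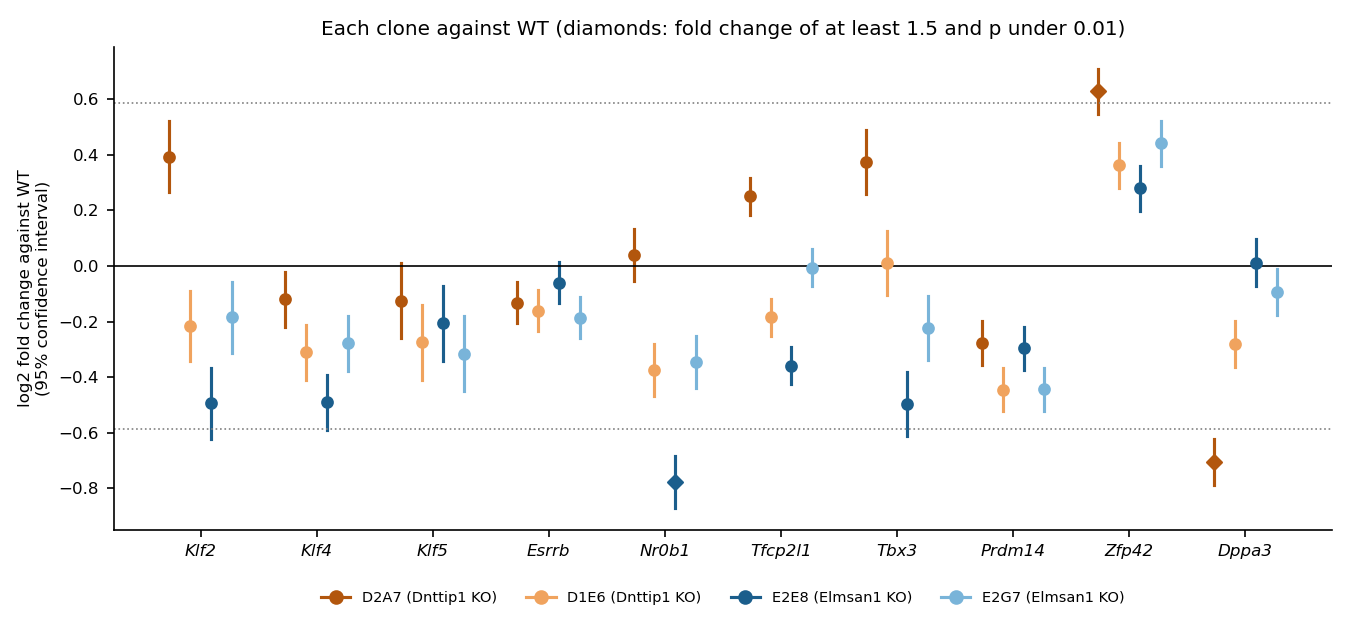
Log2 fold change against WT of each member (horizontal axis) in the 4 clones, with 95% confidence intervals from the fit of all 10 libraries; diamonds mark a fold change of at least 1.5 with p under 0.01 and dotted lines a fold change of 1.5. The diamonds are Zfp42 at 0.63 and Dppa3 at -0.70 in D2A7, and Nr0b1 at -0.78 in E2E8, and D2A7 lies above the other clones for Klf2, Nr0b1, Tfcp2l1 and Tbx3.

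The order of the line means was shared by 3 members. Klf2, Tfcp2l1 and Nr0b1, whose promoters are shown above, had their highest mean in D2A7, then WT, E2G7, D1E6 and E2E8. The libraries do not resolve all of this order. Those of E2G7 and D1E6 overlapped for Klf2 and Nr0b1, and those of WT and E2G7 overlapped for Tfcp2l1. E2E8 had the lowest mean of 5 members (Klf2, Klf4, Tfcp2l1, Tbx3 and Nr0b1) and D2A7 the highest of 5 (Klf2, Tfcp2l1, Zfp42, Tbx3 and Nr0b1), whereas WT was highest for Klf4, Klf5, Esrrb and Prdm14. The fold between the highest and the lowest line was 1.85 for Klf2, 1.83 for Tbx3 and 1.76 for Nr0b1, followed by Dppa3 at 1.64. Over the 10 libraries, which share 5 lines and so are not independent, Pearson's r of log2 levels was 0.94 between Klf2 and Tfcp2l1, 0.94 between Klf2 and Tbx3, 0.94 between Klf4 and Nr0b1 and 0.90 between Klf5 and Prdm14. Dppa3 ran the other way, with r of -0.83 to Tbx3 and -0.78 to Klf2 and to Zfp42.

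Among 12215 expressed genes (mean of at least 1 FPKM), the gene with the most similar profile over the 10 libraries was Otx2 for Nr0b1 (r = 0.99), Tdgf1 for Tbx3 (0.99), Zfp217 for Zfp42 (0.99), Gclm for Dppa3 (0.99) and Hist1h1t for Prdm14 (0.99). For Klf2 it was 1700030C10Rik (0.99), for Klf4 BC067068 (0.99), for Tfcp2l1 Ppp6c (0.99), for Klf5 Dpagt1 (0.97) and for Esrrb Bin1 (0.97). Between 0.303% of expressed genes for Klf5 and 3.70% for Klf2 had r over 0.9. Levels also ran with library depth, with r to log10 total fragments of -0.78 for Klf5, -0.77 for Prdm14, -0.71 for Klf4 and -0.68 for Esrrb, and of 0.61 for Zfp42. For the other members r lay between -0.59 (Nr0b1) and -0.05 (Dppa3). The WT libraries were the shallowest, the highest for Klf4, Klf5, Esrrb and Prdm14, and the lowest for Zfp42, so depth and WT cannot be told apart here.

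Klf2, Zfp42 and Dppa3 lie on chromosomes whose median level was above WT in 3 or 4 clones. Klf2 (ENSMUSG00000055148, NCBIM37 chr8:74842932-74845555, plus strand) and Zfp42 (ENSMUSG00000051176, NCBIM37 chr8:44380422-44392363, minus strand) are on chromosome 8, where the median log2 fold change of 667 expressed genes against WT was 0.37 in D2A7, 0.37 in D1E6, 0.35 in E2E8 and 0.36 in E2G7. Zfp42 therefore stood 0.26 above its chromosome in D2A7 and at -0.0033, -0.07 and 0.09 relative to it in D1E6, E2E8 and E2G7. Among the 33 expressed genes within 5 Mb of Zfp42, the median was 0.26 in Dnttip1 KO and 0.37 in Elmsan1 KO, and 72.7% and 45.5% of them lay below it.

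Klf2 stood apart from chromosome 8 in the other direction. It was 0.02 above the chromosome median in D2A7 and at -0.58 in D1E6, -0.84 in E2E8 and -0.54 in E2G7 relative to it. Of its 107 neighbours within 5 Mb, 13.1% lay below it in Dnttip1 KO and 1.87% in Elmsan1 KO. In D2A7 alone, 48.6% lay below it. Dppa3 (ENSMUSG00000046323, NCBIM37 chr6:122576428-122580290, plus strand) is on chromosome 6, where 542 expressed genes had a median of -0.08 in D2A7, 0.42 in D1E6, 0.39 in E2E8 and 0.29 in E2G7. Relative to these medians Dppa3 was lower in all 4 clones, at -0.62, -0.71, -0.37 and -0.38.

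When each chromosome's median was set to that of the reference line, Zfp42 no longer passed the test (0.13 in Dnttip1 KO, adjusted p = 0.471, and 0.01 in Elmsan1 KO, adjusted p = 0.961, limma). In the same setting Dppa3 passed the 1.5-fold rule in Dnttip1 KO, at -0.66 (adjusted p = 0.00427), and Klf2 passed it in Elmsan1 KO, at -0.69 (adjusted p = 0.0262, limma), and Klf2 in Dnttip1 KO turned to -0.28. Prdm14 was -0.31 (adjusted p = 0.0519) in Dnttip1 KO and -0.33 (adjusted p = 0.0405) in Elmsan1 KO, and Klf4 -0.40 (adjusted p = 0.0371) in Elmsan1 KO. The part of a chromosome-wide shift in the Zfp42, Klf2 and Dppa3 values against WT was not tested beyond this setting.

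**Figure D4:**
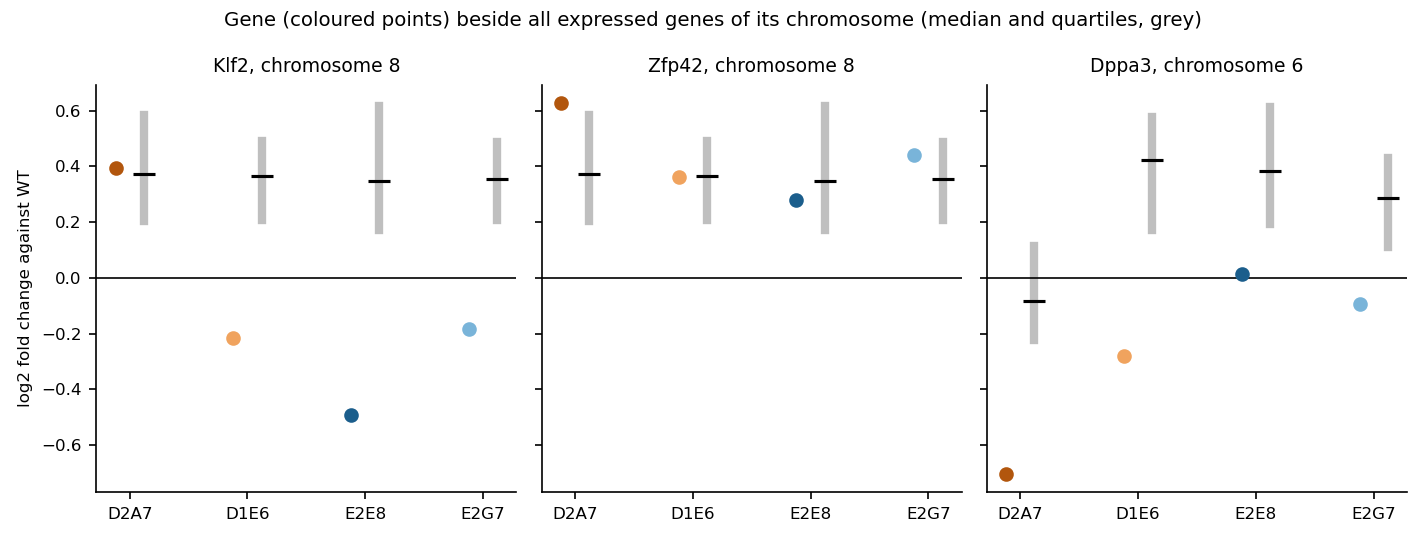
Log2 fold change against WT (vertical axis) of Klf2, Zfp42 and Dppa3 in each clone (coloured points), beside the median (black bar) and quartiles (grey) of the expressed genes on the same chromosome. Zfp42 lies near the median of chromosome 8 in D1E6, E2E8 and E2G7, Klf2 lies below it in those 3 clones, and Dppa3 lies below the median of chromosome 6 in all 4.

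The remaining members lie on other chromosomes, each protein coding in the annotation. On NCBIM37, Klf4 is at chr4:55540013-55545347, Klf5 at chr14:99697910-99712624, Esrrb at chr12:87702067-87862578, Tfcp2l1 at chr1:120524522-120581744, Prdm14 at chr1:13103538-13117244, Tbx3 at chr5:120120678-120134733 and Nr0b1 at chrX:83437103-83441286. Median shifts of chromosomes 1, 4, 5, 12, 14 and X in Dnttip1 KO and Elmsan1 KO lay between -0.07 and 0.01.

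Of the core factors that work with these genes, Sox2 was lower in both knockouts and Nanog in Elmsan1 KO at adjusted p under 0.05 (limma). These tests also treat libraries of a clone as separate samples, and the fit with a correlation within clones is not given for them. From the mRNA of Sox2, Pou5f1 and Nanog, by RNA-seq tracks and qRT-PCR, the study reported no effect on self-renewal or pluripotency. It also reported an unchanged share of colonies that stained for alkaline phosphatase in both knockouts. By the 1.5-fold rule, 0 of 4 (Pou5f1, Sox2, Nanog and Sall4) were called in either knockout, with 2 at an unadjusted p under 0.05 in each (limma). Sox2 was 186 ± 10.6 in WT (SD, n = 2), 143 ± 4.44 in Dnttip1 KO (n = 4) and 136 ± 2.82 in Elmsan1 KO (n = 4), with log2 fold changes of -0.38 (adjusted p = 0.0157) and -0.46 (adjusted p = 0.00725, limma). Nanog had -0.20 (adjusted p = 0.0539) and -0.35 (adjusted p = 0.0241), and Pou5f1 -0.06 (adjusted p = 0.702) and -0.22 (adjusted p = 0.241, limma). The list medians were -0.13 and -0.29.

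Other genes of the network come from lists that, like the members, were chosen with earlier results known. Of all tested genes, 3.26% were called higher and 3.25% lower in Dnttip1 KO, and 2.74% and 3.68% in Elmsan1 KO, by the 1.5-fold rule. Of 10 other naive-state genes, 1 was called higher and 0 lower in Dnttip1 KO, and 1 higher and 1 lower in Elmsan1 KO (list medians -0.05 and -0.27). Tcl1, a coactivator of AKT, was the gene called higher in both, from 23.9 ± 0.0618 in WT to 50.6 ± 5.34 and 37.5 ± 2.17, log2 fold changes of 1.07 (adjusted p = 0.00522) and 0.65 (adjusted p = 0.00500, limma). Of 12 genes of the LIF, WNT and ERK inputs, 0 were called higher and 3 and 2 lower (medians -0.11 and -0.20). Socs3, a STAT3 target that feeds back on LIF signalling, fell from 38.4 ± 2.71 to 21.0 ± 1.21 and 22.2 ± 1.41 (log2 -0.87, adjusted p = 0.00474, and -0.79, adjusted p = 0.00456, limma). Fgfr2, an FGF receptor, was low throughout, at 0.996 ± 0.0670 in WT, 0.345 ± 0.0332 in Dnttip1 KO and 0.452 ± 0.125 in Elmsan1 KO (adjusted p = 0.00838 and 0.0472, limma).

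Of 10 primed and formative genes, 9 could be tested, of which 1 was called higher and 2 lower in Dnttip1 KO, and 0 higher and 2 lower in Elmsan1 KO (medians -0.26 and -0.57). T (Brachyury), a mesendoderm factor, was low throughout and was called lower in both, from 0.591 ± 0.101 to 0.208 ± 0.0374 and 0.262 ± 0.0697. These levels are near the filter of 0.1 FPKM. Of the 6 testable DNA methylation and TET genes, 0 were called in either knockout, with 3 at an unadjusted p under 0.05 in each (limma, medians 0.04 and -0.04). The KLF paralogues also gave 0 calls among 12 tested in Dnttip1 KO and 13 in Elmsan1 KO, with 3 and 5 at an unadjusted p under 0.05 (limma, medians 0.02 and -0.03). Of 9 testable paralogues of the other members, 0 were called higher in either knockout, and 1 and 0 lower (medians -0.04 and -0.06).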

How the data were processed

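RNA-seq libraries of WT mESCs and of 4 knockout clones, 2 per line, were used. The authors deposited FPKM values per gene: per the study's methods and the labels, stranded total RNA was sequenced from both ends, aligned to NCBIM37 and counted with HTSeq. GENCODE vM20 is the annotation stated for counting, whereas vM1, the release on NCBIM37, was used here for lengths and positions. The gene lengths behind the FPKM, and the handling of reads with several matches, are not given in the sources used here. The deposited FPKM were divided by a median-ratio factor per library (0.965 to 1.01), and log2(value + 0.1) was tested with limma 3.58.1 (R 4.3.3, moderated test with a variance trend) keeping genes that reached 0.1 FPKM in 2 or more libraries of the fit, which all 10 members did. Knockouts were compared with WT as 4 libraries against 2, and with each other as 4 against 4, in fits of those libraries. Clones were compared in 1 fit of all 10 libraries with a mean per line. P-values were adjusted by Benjamini-Hochberg over all genes tested. The rule of the study for a called gene was kept (1.5-fold or more, unadjusted p below 0.01). Fold changes are on the log2(value + 0.1) scale, which understates changes of low genes.

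Multiplying FPKM by exon length (GENCODE vM1, which matched 97.2% of gene identifiers) gave whole fragments for 98.3% to 98.6% of values under 100 fragments, within 0.05. These recovered fragments gave library depth and fed voom as an alternative. Tfcp2l1 is named Tcfcp2l1 in that annotation. The fitting steps were tested on simulated data. The libraries of a line differed by more than counting noise, most in WT, where the median over genes was only slightly above that of the clones. All members are named. Of other genes, the text names the core factors, both targeted genes, list genes called alike in both knockouts and the most similar expressed gene to each member, and the genes behind list counts only as numbers. Outside that rule, Dppa5a, Tfap2c and Tet2 were named after their values were seen. The members and all gene lists were chosen with earlier results of these data known. Promoters came from RefSeq (GRCm38.p6), cut to the 250 bases before the start. Alternatives tried were other pseudocounts (1 and 0.01), filters (none, or a mean of at least 1 FPKM), FPKM without scaling, quantile normalization, no variance trend, a replicate block, chromosome medians set to the reference line, voom, a correlation within clones, all libraries in 1 fit and leaving out each library.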

Additional observations from a re-analysis of the deposited data

Results flagged for a closer look

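Both Dnttip1 KO clones carry the same knockout but differed in Klf2, with a log2 difference between D2A7 and D1E6 of 0.61 by the test of the difference itself (adjusted p = 8.5e-05, limma). Each clone gave 2 libraries, and D2A7 was higher in 2 of 2. In Klf2, Tfcp2l1 and Nr0b1, both D2A7 libraries lay above both WT libraries and both D1E6 libraries below them. The differences between the clones were 0.61 for Klf2, 0.44 for Tfcp2l1 (adjusted p = 1.79e-05) and 0.41 for Nr0b1 (adjusted p = 0.000132, limma). D2A7 against WT was small for Nr0b1, at 0.04 (adjusted p = 0.451, limma). The cause of the difference between clones was not tested.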

How the results depend on the processing

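Each knockout rests on 2 clones and 2 WT libraries shared by both comparisons. At least 1754 fragments stood behind each value, which bounds counting error only. With chromosome medians set to the reference line, the members called by the 1.5-fold rule went from 0 to 1 in Dnttip1 KO (Dppa3), 0 to 1 in Elmsan1 KO (Klf2), 2 to 1 in D2A7 (Dppa3 kept), 0 to 1 in D1E6 (Dppa3) and 1 to 2 in E2E8 (Klf2 and Nr0b1). The same setting reversed Klf2 in Dnttip1 KO (-0.28), Zfp42 in D1E6 (-0.0040) and in E2E8 (-0.077), Dppa3 in E2E8 (-0.37) and between D2A7 and D1E6 (0.068), Esrrb between D2A7 and D1E6 (-4.4e-05) and Tfcp2l1 in E2G7 (0.033). Tfcp2l1 in E2G7 also reversed with FPKM as deposited (0.013) and voom (0.0068), and Prdm14 between the knockouts with quantile normalization (-0.0032). The cause was not tested.

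Leaving out single libraries, the members called ranged from 0 to 1 in Elmsan1 KO against WT, in Dnttip1 KO against Elmsan1 KO and in D2A7 against D1E6 (Nr0b1, Tbx3 and Klf2). Ranges of the values that reversed were -0.014 to 0.20 for Klf2, -0.049 to 0.11 for Tfcp2l1 (both in Dnttip1 KO), -0.089 to 0.0073 for Dppa3 in Elmsan1 KO, -0.047 to 0.0057 for Esrrb and -0.027 to 0.047 for Prdm14 between the knockouts, -0.024 to 0.044 for Tbx3 in D1E6, -0.036 to 0.060 for Dppa3 in E2E8 and -0.016 to 0.0050 for Tfcp2l1 in E2G7. At adjusted p under 0.05 (limma), no variance trend, the correlation within clones and the replicate block each left 0 members in Dnttip1 KO and 0 in Elmsan1 KO, from 2 and 3, and voom 1 (Zfp42) and 2 (Zfp42 and Prdm14).

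The replicate block left the count by the 1.5-fold rule at 0 members in both knockouts. Whether libraries of the same number belong together is not given in the sources used here. Deviations of same-numbered libraries correlated from -0.14 to 0.19 over the 10 pairs of lines. Such correlations over all genes cannot decide whether the libraries are paired. Of the other single-member values, 1095 under the settings and 419 without a library kept direction and side of the rule, 4 and 5 gained the call and 1 and 1 lost it (Zfp42 in D2A7 with chromosome medians set, 0.25, and Klf2 in D2A7 against D1E6 without D1E6 replicate 1, 0.58).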

Other observations

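Both genes below belong to the lists of the report and were chosen after their values were seen. Otx2, a homeobox factor of the formative state and the expressed gene whose profile was most like that of Nr0b1, was 11.1 ± 0.151 normalised FPKM in WT (SD, n = 2), 6.93 ± 4.66 in Dnttip1 KO (n = 4) and 1.86 ± 1.28 in Elmsan1 KO (n = 4). Its log2 fold change was -2.80 in Elmsan1 KO (adjusted p = 0.0435) and -0.96 in Dnttip1 KO (adjusted p = 0.396, limma). These tests too treat libraries of a clone as separate samples, and the fit with a correlation within clones is not given for Otx2. Tet2, a 5-methylcytosine dioxygenase, was 17.5 ± 0.182 in WT, 16.98 ± 4.85 in Dnttip1 KO and 8.35 ± 3.21 in Elmsan1 KO. The log2 difference between Dnttip1 KO and Elmsan1 KO was 1.05 for Tet2 (unadjusted p = 0.00657, adjusted p = 0.296, limma). Against WT, its clones stood at 0.28 in D2A7, -0.45 in D1E6, -1.63 in E2E8 and -0.64 in E2G7 on the log2 scale, so that E2E8 was again lowest and D2A7 highest.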
